A study of Mus musculus with 9 samples.

Results

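The 10 genes described here belong to the circadian clock and its direct output and were measured in the colon of 9 mice: *Arntl*, *Clock*, *Per1*, *Per2*, *Per3*, *Ciart*, *Nr1d1*, *Nr1d2*, *Dbp* and *Tef*. They were taken from the count table by their symbols, and all 10 were found among the 27719 genes of the table. The study asked what electroacupuncture (EA) changes in mice with colitis. Colon RNA was sequenced from 3 C57BL/6J mice in each of 3 groups, 1 library to a mouse. The DSS group drank 2.5% dextran sodium sulfate, which injures the colon epithelium, for 7 days. The DSS + EA group drank the same DSS and was given EA once a day for 5 days after 5 days of modeling, for 30 minutes at both ST36 points of the hind limbs, at 2 Hz and 0.2 mA. The control group drank distilled water. Control and DSS mice were held for 30 minutes without EA, so the hold was shared by all groups and no group received needles without current. No genetic change, age or sex is given for any group in the sources used here.

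In the mammalian clock, ARNTL (also called BMAL1) and CLOCK pair on the DNA and switch on genes that carry an E-box, among them the *Per* genes, *Nr1d1*, *Nr1d2*, *Ciart*, *Dbp* and *Tef*. The PER proteins and CIART repress ARNTL and CLOCK in turn, and the products of *Nr1d1* and *Nr1d2* (REV-ERBα and REV-ERBβ) repress *Arntl*, so that *Arntl* and the E-box genes normally peak at opposite times of the day. Most cell types of the colon run this clock, and transcription of *Per1* and *Per2* is also switched on directly by glucocorticoids and by cAMP signals. No hour of killing is given in the sources used here, and each mouse was sampled once, so the values are levels at one moment and hold no rhythm, and a difference in hour between the groups was not tested.

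Promoter sequences are shown first because 3 of the members described below, *Ciart*, *Per1* and *Tef*, hold the letters of the E-box close to a start. RefSeq start sites of build GRCm38.p6 were matched for 9 of the 10 members, at 14 start sites, and the 250 bases before each were searched on both strands. *Per2* is named only. The E-box, CACGTG, was present for 3 of the 9 members with a start site, against 6.02% of the 32851 promoters of the table. The shares given here and below are of single promoters, whereas a member could have several start sites, so the 2 are not like counts. The D-box that DBP and TEF bind, searched as TTATGTAA or TTACGTAA, was present for 1 member, *Per3*, against 0.931% of promoters. TAGGTCA, 1 form of the letters of an element bound by REV-ERB and ROR proteins, was present for 0 members, against 2.23% of promoters. Other forms of these elements, and bases outside the 250 before each start, were not searched, so no match does not mean that a member lacks the element. Capitals mark the matches in the sequences that follow, each given 5′ to 3′ on the strand of its gene. The *Ciart* stretch, chr3:95882255-95882356 on the minus strand, holds 3 E-boxes that begin 116, 58 and 44 bases before the start, and lies in no annotated exon but within the antisense gene C920021L13Rik.
Ciart: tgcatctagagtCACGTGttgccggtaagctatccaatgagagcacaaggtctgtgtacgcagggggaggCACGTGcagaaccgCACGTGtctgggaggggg
The *Per1* match, chr11:69098771-69098800 on the plus strand, begins 166 bases before the first of its start sites and lies within the annotated *Per1* gene, outside its exons.
Per1: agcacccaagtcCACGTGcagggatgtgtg
*Tef* had a match before each of its start sites, 127 bases before the first, chr15:81802534-81802563, in the annotated UTR of a longer *Tef* transcript, and 138 bases before the second, chr15:81811264-81811293, in an intron. Both are on the plus strand.
Tef start 1: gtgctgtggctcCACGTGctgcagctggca
Tef start 2: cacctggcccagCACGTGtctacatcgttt
The D-boxes of *Per3*, chr4:151044851-151044882 and chr4:151044804-151044835 on the minus strand, begin 205 and 158 bases before the start, outside *Per3* and within the gene *Camta1*.
Per3 D-box 1: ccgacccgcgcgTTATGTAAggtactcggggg
Per3 D-box 2: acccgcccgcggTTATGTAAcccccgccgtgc
These are matches of letters and no measure of binding.

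**Figure D1:**
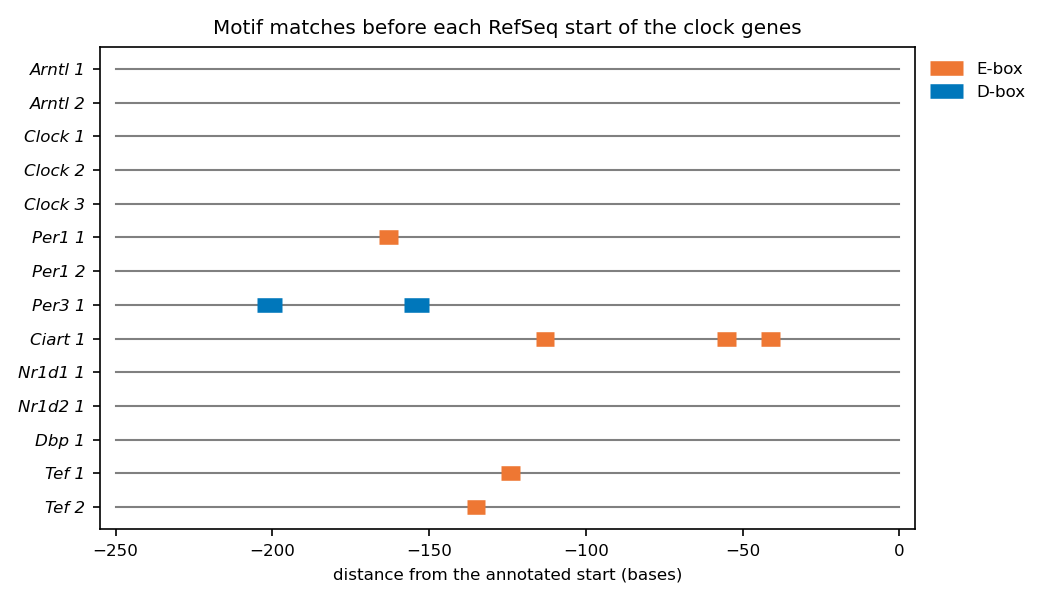
Matches of the E-box and the D-box in the 250 bases before each of the 14 RefSeq start sites of 9 clock genes, with the distance from the annotated start in bases on the horizontal axis and 1 line per start site. Boxes mark matches on either strand, and *Ciart* holds 3 E-boxes, 116, 58 and 44 bases before its start.

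Between 2627695 and 4235576 reads per mouse were counted on genes, so that 3 counts corresponded to 0.652 to 1.15 CPM (counts divided by the TMM-adjusted library size and brought to one scale). Reads copied by PCR from one molecule may have been counted separately, so counting intervals cover counting error only. The labelled tissue was checked with marker lists, and all 9 epithelial and all 7 smooth muscle markers were counted in each group. The summed level of the epithelial markers was 8993 to 25967 CPM in control, 1193 to 5700 in DSS and 6217 to 13061 in DSS + EA mice. Fibroblast markers summed to 753 to 824, 4079 to 6796 and 1612 to 1703 CPM, macrophage markers to 195 to 224, 861 to 1257 and 517 to 585 CPM, and neutrophil markers to 5.59 to 9.31, 2255 to 24920 and 549 to 956 CPM in the same order. Smooth muscle markers summed to 2888 to 3582, 1152 to 2197 and 2241 to 2307 CPM, those of enteric neurons and glia to 64.5 to 79.1, 96.2 to 109 and 41.6 to 50.4 CPM, and lymphocyte markers to 21.5 to 29.9, 16.4 to 27.4 and 31.0 to 62.8 CPM. Between DSS and control, 6 of 9 epithelial and 6 of 7 smooth muscle markers were called lower, and 6 of 6 fibroblast, 6 of 7 macrophage and 5 of 5 tested neutrophil markers higher. Some libraries stood apart. DSS mouse 1 had the least neutrophil (2255 CPM) and the most epithelial signal of the DSS mice, and DSS + EA mice 2 and 3 held 25974 and 13287 CPM of 8 markers of the pancreatic acinar cell, against 41.8 to 480 CPM in the other 7 mice.

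In the DSS group, *Per1*, *Per2*, *Ciart*, *Nr1d1*, *Tef* and *Clock* were higher and *Arntl* lower than in the control group. In the DSS + EA group, *Per1*, *Per2*, *Ciart*, *Nr1d1* and *Tef* were lower than in the DSS group, while *Arntl* was close to its level in the DSS group and about as far below the control group. Calls were made at a Benjamini-Hochberg adjusted p under 0.05 in edgeR's quasi-likelihood test, fitted over the 12566 genes that passed a filter on low counts. *Per3* and *Dbp* did not pass it, and *Per1*, *Per2*, *Nr1d2* and *Ciart* would not have passed it without the DSS libraries, so the counts of members describe and support nothing by themselves. Between DSS and control, 7 of the 8 members tested were called, 6 higher and 1 lower, where 40.9% of all genes tested were called, 21.5% higher and 19.5% lower. From DSS to DSS + EA, 5 were called, all lower, where 35.5% of all genes were called and 18.3% were called lower. When DSS + EA was set against control, 1 was called, *Ciart*, higher, where 3.64% of all genes were called, 3.0% higher and 0.637% lower. With no filter and all 10 members tested, the counts were 6, 5 and 1, against 28.0%, 22.8% and 2.59% of 22099 genes. The first and the second of these comparisons rest on the same DSS mice and are not independent of each other.

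**Figure D2:**
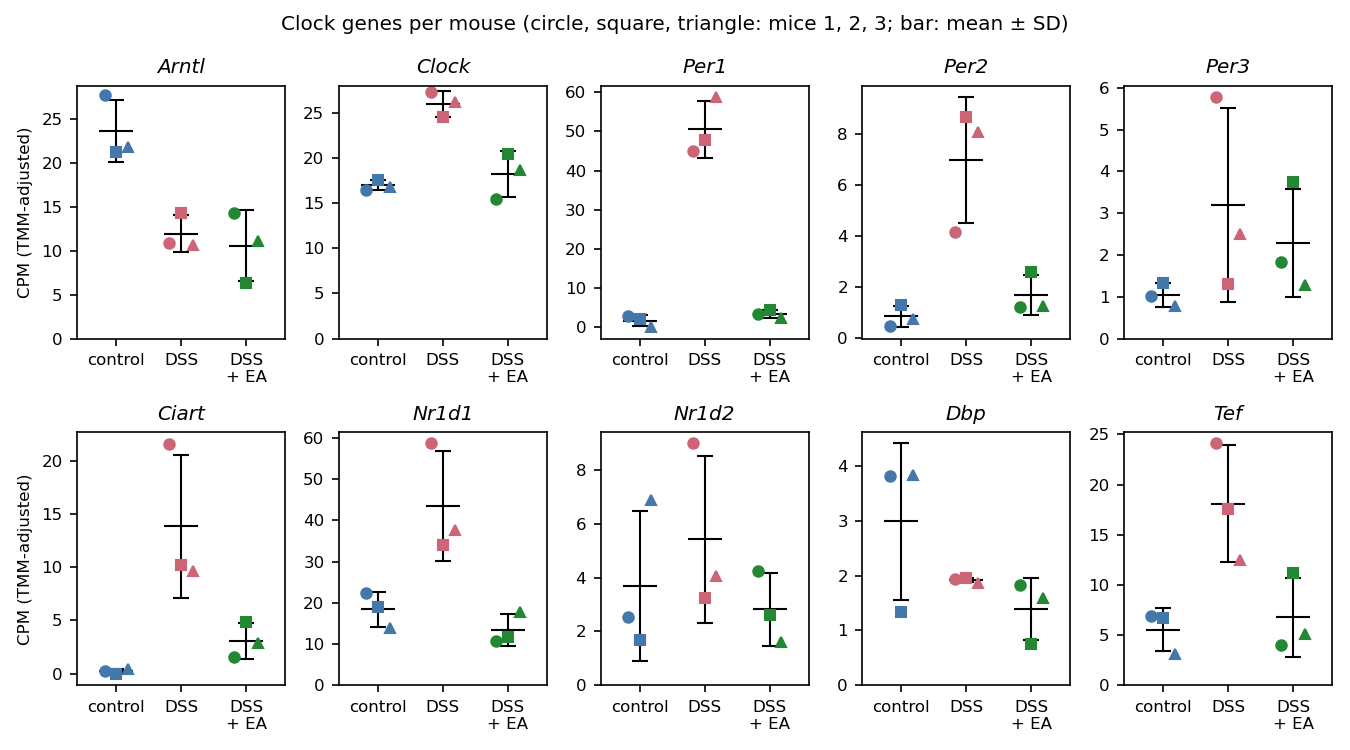
Level of each of the 10 clock genes in each mouse, in CPM on a linear axis, by group. Circles, squares and triangles are mice 1, 2 and 3, and the bars give the mean and SD of 3 mice. *Per1*, *Per2*, *Ciart*, *Nr1d1* and *Tef* lie above both other groups in all 3 DSS mice, while *Arntl* lies higher in all 3 control mice than in the other 6.

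The median log2 fold change of the tested members was 1.46 between DSS and control, -1.57 between DSS + EA and DSS and 0.17 between DSS + EA and control, beside 0.02, -0.02 and 0.00 over all genes tested. With no filter, the medians over all 10 members were 1.36, -1.10 and 0.21, beside 0.09, -0.11 and 0.00 over 22099 genes. Groups did not overlap for 7, 6 and 2 of the 8 tested members, against 52.0%, 47.4% and 32.2% of all genes tested. By direction, the DSS mice were all above the control mice for 6 members (26.2% of genes) and all below for 1 (25.9%), the DSS + EA mice were all below the DSS mice for 6 (23.3%), and against control they were all above for *Ciart* and all below for *Arntl*. At the thresholds of the study's methods, a log2 fold change beyond 2.5 and an unadjusted P under 0.01, *Per1*, *Per2* and *Ciart* passed between DSS and control (10.2% of all genes did), *Per1* passed between DSS + EA and DSS (6.41% did), and *Ciart* passed between DSS + EA and control (2.08% did). With the pancreas-marked DSS + EA mice 2 and 3 left out, which leaves 1 mouse in that group assumed to vary like the others, the fold changes between DSS + EA and DSS kept their sign for *Per1*, *Per2*, *Ciart*, *Nr1d1* and *Tef*, and *Per1* alone was still called (adjusted p = 0.0431, edgeR), among 807 genes called in place of 4457. With 3 mice against 3, an exact two-sided permutation test cannot go below p = 0.1, so every p given comes from a model fitted across all genes. Nothing in the labels says from which litters or cages the mice came.

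**Figure D3:**
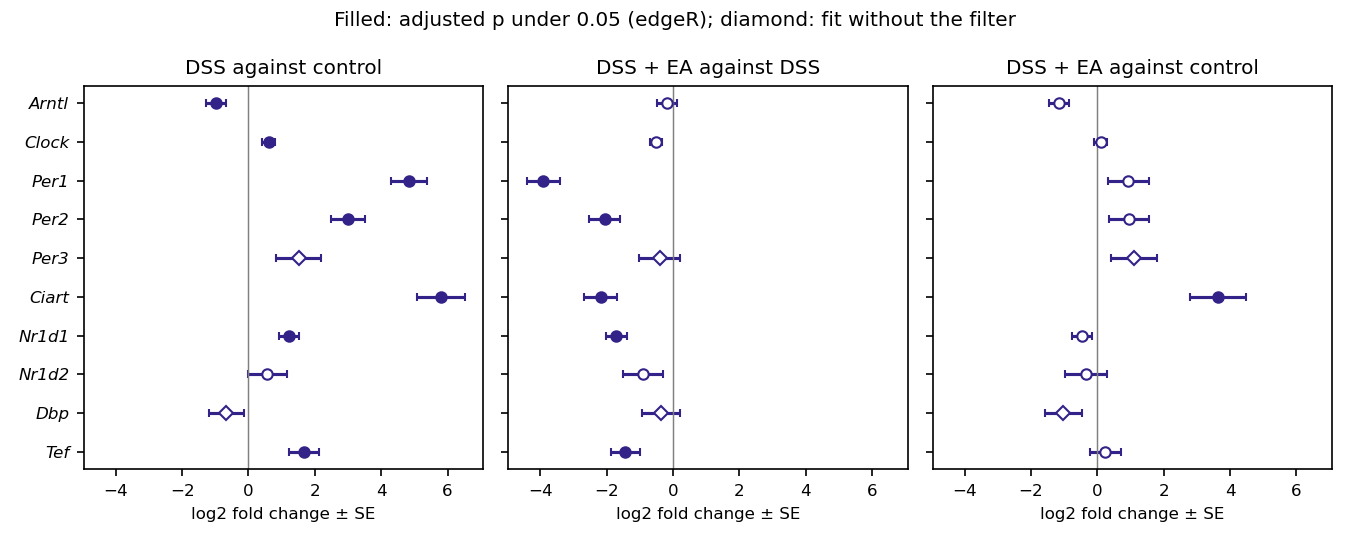
Log2 fold change of each clock gene in the 3 comparisons, with its standard error, from edgeR's fit over all 9 mice. Filled symbols passed an adjusted p of 0.05, and diamonds are *Per3* and *Dbp*, taken from the fit without the filter. The values of *Ciart* against control rest on 2 counts in the control group and depend on the prior count.

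*Per1* and *Per2* encode repressors of the clock that form complexes with the cryptochromes. *Per1* was counted at 2.80, 1.99 and 0 CPM in the control mice, 45.0, 47.8 and 58.7 CPM in the DSS mice and 3.35, 4.48 and 2.22 CPM in the DSS + EA mice. The 0 is a count of 0 in control mouse 3, which allows a level of up to 1.15 CPM. All DSS mice stood far above the other 6 mice, and the DSS + EA mice overlapped the control mice. The log2 fold change was 4.84 (SE 0.54, adjusted p = 0.000184, edgeR) between DSS and control, 28.7-fold, and -3.91 (SE 0.50, adjusted p = 0.000688) between DSS + EA and DSS, 15.1-fold lower. Against control, the DSS + EA group differed by 0.93 (SE 0.62, adjusted p = 0.494, edgeR). With each mouse left out in turn, the first value ranged from 4.33 to 5.50 and the second from -4.13 to -3.70, and both remained called in all 9 fits. In reads summed over a group, *Per1* had 17 in control, 548 in DSS and 30 in DSS + EA mice.

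*Per2* was counted far less often, with 0.508, 1.33 and 0.766 CPM in the control mice, 4.18, 8.69 and 8.11 CPM in the DSS mice and 1.22, 2.61 and 1.27 CPM in the DSS + EA mice. The DSS mice again lay above all others, mouse 1 lowest among them, and the DSS + EA and control mice overlapped. Between DSS and control the log2 fold change was 3.00 (SE 0.51, adjusted p = 0.00144, edgeR), and between DSS + EA and DSS it was -2.06 (SE 0.46, adjusted p = 0.0079, edgeR). The value of DSS + EA against control was 0.95 (SE 0.60, adjusted p = 0.473, edgeR). The control value rests on 8 reads and the DSS + EA value on 15. Both calls held with each mouse left out in turn, and the second was not made with DSS + EA mice 2 and 3 left out together (-2.48, adjusted p = 0.0972, edgeR).

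*Per3*, whose product is held to be less needed for the rhythm itself, was counted at 1.02, 1.33 and 0.766 CPM in the control mice, 5.79, 1.30 and 2.50 CPM in the DSS mice and 1.83, 3.74 and 1.27 CPM in the DSS + EA mice. DSS mouse 1 stood above the rest, DSS mouse 2 lay among the control mice, and all 3 groups overlapped. In the fit without the filter, its log2 fold change between DSS and control was 1.51 (SE 0.67, adjusted p = 0.11, edgeR), and it passed with DSS mouse 2 left out (1.96, adjusted p = 0.0364). Neither other comparison passed (adjusted p = 0.662 and 0.582). These values rest on 4 to 18 reads in each of the DSS and DSS + EA mice.

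*Ciart* (also called CHRONO), a repressor of ARNTL and CLOCK, was close to the limit of detection in the control mice, with 1, 0 and 1 reads. The count of 0 in control mouse 2 allows up to 0.997 CPM. The DSS mice had 21.6, 10.2 and 9.67 CPM, from 67, 47 and 31 reads, and the DSS + EA mice 1.52, 4.86 and 2.85 CPM, from 5, 13 and 9 reads. No 2 groups overlapped, and the order was DSS, DSS + EA, control. Against the 2 reads of the control group, the level was 63.4-fold higher in the DSS group (95% counting interval 17.3 to 529) and 14.1-fold higher in the DSS + EA group (3.56 to 123). The edgeR test gave an adjusted p of 0.000327 for the first and 0.0473 for the second. With EA added to DSS, the log2 fold change was -2.17 (SE 0.50, adjusted p = 0.00876, edgeR), 4.51-fold lower, and it remained called with each mouse left out in turn (-2.61 to -1.68), though not with DSS + EA mice 2 and 3 left out together (-3.13, adjusted p = 0.0632). The call between DSS + EA and control ended without control mouse 1 (adjusted p = 0.196), 2 (0.157) or 3 (0.101), without DSS mouse 2 (0.0589) and without DSS + EA mouse 2 (0.128) or 3 (0.15).

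*Nr1d1*, whose product REV-ERBα represses *Arntl*, was counted at 22.4, 19.0 and 13.8 CPM in the control mice, 58.9, 34.1 and 37.8 CPM in the DSS mice and 10.7, 11.6 and 17.8 CPM in the DSS + EA mice. DSS mouse 1 was the highest of all mice, the DSS group lay above both other groups, and the DSS + EA and control mice overlapped. Its log2 fold change between DSS and control was 1.23 (SE 0.30, adjusted p = 0.00912, edgeR), and between DSS + EA and DSS it was -1.70 (SE 0.31, adjusted p = 0.00309, edgeR). The DSS + EA and control groups differed by -0.47 (SE 0.31, adjusted p = 0.494, edgeR). Each mouse left out in turn gave 0.93 to 1.40 for the first comparison and -1.99 to -1.40 for the second, with the call kept in all 9 fits. With DSS + EA mice 2 and 3 left out together, the second was -2.01 and not called (adjusted p = 0.055). *Nr1d1* shares 263 exonic bases with *Thra* on the opposite strand, and whether reads were counted by strand is not given in the sources used here. *Thra* itself had 57, 25 and 13 counts in the control, 30, 75 and 24 in the DSS and 15, 10 and 15 in the DSS + EA mice, and the part of shared reads in the *Nr1d1* values was not tested.

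*Nr1d2*, its paralog, did not pass in any comparison. The control mice had 2.54, 1.66 and 6.90 CPM, the DSS mice 9.01, 3.26 and 4.06 CPM and the DSS + EA mice 4.26, 2.61 and 1.59 CPM. Control mouse 3 and DSS mouse 1 were high and the groups overlapped. The log2 fold change was 0.57 (SE 0.59, adjusted p = 0.467, edgeR) between DSS and control, and -0.0057 without DSS mouse 1. It was -0.91 (SE 0.61, adjusted p = 0.265, edgeR) between DSS + EA and DSS. These values rest on 5 to 28 reads per mouse.

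*Arntl*, the activator that pairs with CLOCK, differed from the genes so far. Its level was 27.7, 21.3 and 21.8 CPM in the control mice, 10.9, 14.3 and 10.6 CPM in the DSS mice and 14.3, 6.35 and 11.1 CPM in the DSS + EA mice. All control mice lay above all 6 others, and the DSS and DSS + EA mice overlapped. The log2 fold change was -0.97 (SE 0.29, adjusted p = 0.0235, edgeR) between DSS and control, a level 1.97-fold lower, and -0.17 (SE 0.30, adjusted p = 0.68, edgeR) between DSS + EA and DSS. Set against control, the DSS + EA group differed by -1.15 (SE 0.30), a larger size than in the first comparison, but did not pass in edgeR (adjusted p = 0.0689), where fewer genes were called in all. DESeq2 called it (-1.14, adjusted p = 0.0331), as did edgeR with these 2 groups alone (adjusted p = 0.0393). It was not called in any of the 9 fits with a mouse left out (adjusted p = 0.0553 to 0.277), with the replicate block (0.114) or without DSS + EA mice 2 and 3 (-0.74, adjusted p = 0.792, edgeR). The DSS call ended without control mouse 1 (-0.88, adjusted p = 0.0757) and without DSS mouse 3 (-0.89, adjusted p = 0.0607). Without DSS + EA mouse 2, the value between DSS + EA and DSS was 0.11. In bulk tissue, fewer cells of a type that holds a transcript and less of it per cell cannot be told apart, and the epithelial and smooth muscle markers were also lower in the DSS mice. Their part in the *Arntl* values was not tested.

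*Clock* showed a narrow spread, with 16.5, 17.6 and 16.9 CPM in the control mice, 27.3, 24.6 and 26.2 CPM in the DSS mice and 15.5, 20.5 and 18.7 CPM in the DSS + EA mice. The DSS mice lay above all others, and the DSS + EA mice surrounded the control mice. Between DSS and control the log2 fold change was 0.61 (SE 0.19, adjusted p = 0.0272, edgeR), 1.53-fold, and between DSS + EA and DSS it was -0.51 (SE 0.19, adjusted p = 0.0593, edgeR). Both sizes lie near the threshold. The first was not called by DESeq2 (adjusted p = 0.0662), with no filter (0.0857), with DSS + EA mice 2 and 3 left out (0.0672) or without control mouse 1 (0.104), 2 (0.0823) or 3 (0.092). The second was called with library totals in place of TMM (-0.59, adjusted p = 0.0296) and with a mean of at least 20 counts (-0.58, adjusted p = 0.0293). The DSS + EA group differed from control by 0.10 (SE 0.19, adjusted p = 0.841, edgeR).

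*Dbp* and *Tef* encode related transcription factors of the PAR bZIP family that carry the clock's phase to D-box genes. *Tef* had 6.86, 6.65 and 3.07 CPM in the control mice, 24.1, 17.6 and 12.5 CPM in the DSS mice and 3.96, 11.2 and 5.08 CPM in the DSS + EA mice. DSS mice lay above all others, with DSS + EA mouse 2 the nearest to them, and the other 2 groups overlapped. The log2 fold change was 1.68 (SE 0.44, adjusted p = 0.0134, edgeR) between DSS and control and -1.44 (SE 0.44, adjusted p = 0.0292, edgeR) between DSS + EA and DSS. The first ended without control mouse 3 (1.38, adjusted p = 0.0526). The second ended without DSS mouse 1 (adjusted p = 0.0655) or 2 (0.0629), without DSS + EA mouse 1 (0.0938) or 3 (0.1), with both groups fitted alone (0.0512) and with DSS + EA mice 2 and 3 left out together (-2.16, adjusted p = 0.0802). An annotated antisense gene, Gm17597, shares 193 exonic bases with *Tef*.

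*Dbp* did not follow *Tef*. It was counted at 3.81, 1.33 and 3.83 CPM in the control mice, 1.93, 1.96 and 1.87 CPM in the DSS mice and 1.83, 0.747 and 1.59 CPM in the DSS + EA mice, from 2 to 15 reads per mouse. The DSS mice fell within the range of the control mice. The DSS + EA mice all lay below the DSS mice, mouse 2 farthest, and overlapped the control mice. In the fit without the filter its log2 fold change was -0.67 (SE 0.52, adjusted p = 0.366, edgeR) between DSS and control and -0.36 (SE 0.57, adjusted p = 0.68, edgeR) between DSS + EA and DSS. *Dbp* shares 539 exonic bases with *Sphk2* on the opposite strand, which had 96, 56 and 77 counts in the control, 19, 57 and 48 in the DSS and 52, 35 and 43 in the DSS + EA mice.

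Because ARNTL and CLOCK switch on E-box genes, 5 members (*Nr1d1*, *Per1*, *Per2*, *Ciart* and *Dbp*) were also read against *Arntl* within the same mouse, as a log2 ratio of CPM with 0.5 CPM added, which is a description with no test. The log2 ratio of *Nr1d1* to *Arntl* was -0.30, -0.16 and -0.64 in the control mice, 2.38, 1.22 and 1.78 in the DSS mice and -0.41, 0.82 and 0.65 in the DSS + EA mice. The DSS mice were highest, and DSS + EA mouse 1 lay among the control mice while mice 2 and 3 lay between the groups. All 5 ratios share *Arntl* as denominator, at 6.35 to 14.3 CPM in the DSS + EA and 21.3 to 27.7 CPM in the control mice. A higher ratio is therefore not a higher level of the other gene. In DSS + EA mouse 2, *Nr1d1* was at 11.6 CPM, below all control mice, and *Arntl* at 6.35 CPM. For *Per1*, the ratios were -3.10, -3.13 and -5.48, then 1.99, 1.70 and 2.41, then -1.94, -0.46 and -2.09. For *Per2*, they were -4.81, -3.57 and -4.14, then -1.29, -0.69 and -0.37, then -3.11, -1.14 and -2.71. The ratios of the 3 groups did not overlap for *Per1*, whereas for *Per2* DSS + EA mouse 2 lay within the DSS range. In CPM, without *Arntl*, the DSS + EA and control mice overlapped for both genes. For *Ciart*, the DSS + EA ratios of -2.87, -0.35 and -1.79 lay above the control ratios of -5.22, -5.44 and -4.66 and reached into the DSS ratios of 0.95, -0.47 and -0.13. The ratio of *Dbp* to *Arntl* lay between -3.57 and -2.23 in all 9 mice, with means of -2.88 ± 0.62 in control, -2.35 ± 0.21 in DSS and -2.53 ± 0.12 in DSS + EA mice (SD, n = 3).

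**Figure D4:**
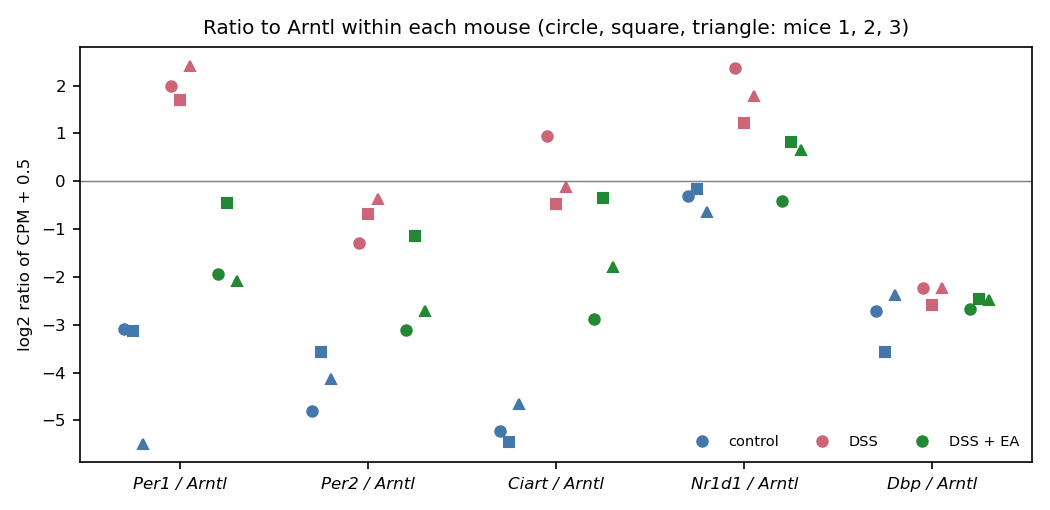
Log2 ratio of 5 clock genes to *Arntl* within each mouse, from CPM with 0.5 CPM added, with the 3 groups in different colours. Circles, squares and triangles are mice 1, 2 and 3. The ratios of *Per1* lie at 1.70 to 2.41 in the DSS mice and below 0 in the other 6, while those of *Dbp* lie between -3.57 and -2.23 in all 9.

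DSS + EA mouse 2, which held the most pancreatic signal, had the highest *Per1*, *Per2*, *Per3*, *Ciart*, *Tef* and *Clock* and the lowest *Arntl* and *Dbp* of its group. DSS mouse 1, with the least neutrophil signal, had the highest *Ciart*, *Nr1d1*, *Nr1d2*, *Tef*, *Per3* and *Clock* and the lowest *Per1* and *Per2* of its group. Without DSS mouse 1, *Per1*, *Per2*, *Ciart* and *Nr1d1* were still called in both comparisons that hold the DSS group. The part of pancreatic or neutrophil RNA in these values was not tested.

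The genes whose pattern over the 9 mice was most like that of *Arntl*, by the root mean square difference of centred log2 CPM, were *Ormdl3* (0.244), *Anapc2* (0.248) and a locus without a gene symbol (0.251). For *Nr1d1* they were *Rgs1* (0.243), *Zfp560* (0.292) and *Thbs2* (0.293), and for *Dbp* they were *Zfp553* (0.264), *Fuk* (0.269) and *Uap1l1* (0.291). No other clock gene was among the 3 nearest of any of them. Only genes that passed the filter were compared, so *Per3*, *Dbp* and other genes with low counts could not appear. The nearest other member ranked 63 for *Dbp* (*Arntl*, 0.384), 589 for *Nr1d1* (*Tef*, 0.534) and 6299 for *Arntl* (*Clock*, 0.786). Nothing is read from these distances beyond likeness over 9 libraries that share their 3 groups.

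Of 24 further genes of the clock, 18 were tested. Between DSS and control, 7 of them were higher and 1 was lower, with a median log2 fold change of 0.46. With EA added, 8 were lower than in the DSS group and 1 was higher, with a median of -0.45. The background shares are those given above. *Cry2* and *Rora*, like 4 of the members, would not have passed the filter on low counts without the DSS libraries in which they are high. *Nfil3*, a repressor of D-box genes, had 3.05, 3.66 and 2.68 CPM in the control, 20.9, 46.3 and 17.5 CPM in the DSS and 3.65, 2.24 and 2.22 CPM in the DSS + EA mice, and the DSS mice lay above all others. Its log2 fold change was 3.16 (SE 0.43, adjusted p = 0.000474, edgeR) with DSS and -3.36 (SE 0.44, adjusted p = 0.00073, edgeR) with EA added. *Cry2*, the cryptochrome partner of the PER proteins, had 3.05, 1.33 and 3.45 CPM, then 9.97, 19.6 and 13.4 CPM, then 0.913, 2.24 and 0.634 CPM in the same order. Its log2 fold changes were 2.45 (SE 0.45, adjusted p = 0.00237, edgeR) and -3.52 (SE 0.51, adjusted p = 0.00117, edgeR), with the DSS mice above all others.

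*Rora*, an activator of *Arntl* that competes with REV-ERBα for its element, moved the same way (2.26, SE 0.47, adjusted p = 0.00431 and -2.75, SE 0.50, adjusted p = 0.00311, edgeR), as did *Bhlhe40*, a repressor at E-boxes (1.73, SE 0.21, adjusted p = 0.000254 and -1.11, SE 0.20, adjusted p = 0.00311). The kinase genes *Csnk1e* (1.46 and -1.59, adjusted p = 0.0088 and 0.00818, edgeR) and *Gsk3b* (1.09 and -1.15, adjusted p = 0.0209 and 0.0202), whose products phosphorylate clock proteins, did too. Some calls were less stable. Those of *Gsk3b* each held in 6 of 9 fits with a mouse left out, and in 8 and 7 of 8 other alternatives. *Csnk1d*, a kinase for PER proteins, was called in both comparisons (0.68 and -0.66, adjusted p = 0.0199 and 0.0255, edgeR), the second in 5 of 9 fits with a mouse left out and in 4 of 8 other alternatives. *Btrc*, part of the ligase that marks PER proteins for destruction, was called lower with DSS (-1.02, adjusted p = 0.0318, edgeR), in 6 of 9 fits with a mouse left out and in 5 of 8 other alternatives. Its call with EA added (0.96, adjusted p = 0.047) held in 3 of 9 fits with a mouse left out and in 1 of 8 other alternatives. *Cry1*, the second cryptochrome gene, did not pass with all mice between DSS and control (1.05, adjusted p = 0.0701, edgeR), and passed without DSS mouse 1 (1.33, adjusted p = 0.0123). Low counts kept *Npas2*, *Hlf* and *Bhlhe41* out of the test. *Npas2*, a paralog of *Clock*, had 20, 13 and 6 reads in the control, 1, 5 and 1 in the DSS and 2, 5 and 4 in the DSS + EA mice, so that its control mice, like those of *Arntl*, lay above all others. *Hlf*, of the family of *Dbp* and *Tef*, had 10, 6 and 5, then 9, 29 and 11, then 3, 2 and 3 reads, and *Bhlhe41* 8, 8 and 5, then 7, 19 and 10, then 2, 2 and 3 reads. In the fit without the filter, *Npas2* was lower between DSS and control (-2.64, adjusted p = 0.00636, edgeR), and *Hlf* (-2.16, adjusted p = 0.00899) and *Bhlhe41* (-1.93, adjusted p = 0.0195) were lower between DSS + EA and DSS.

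**Figure D5:**
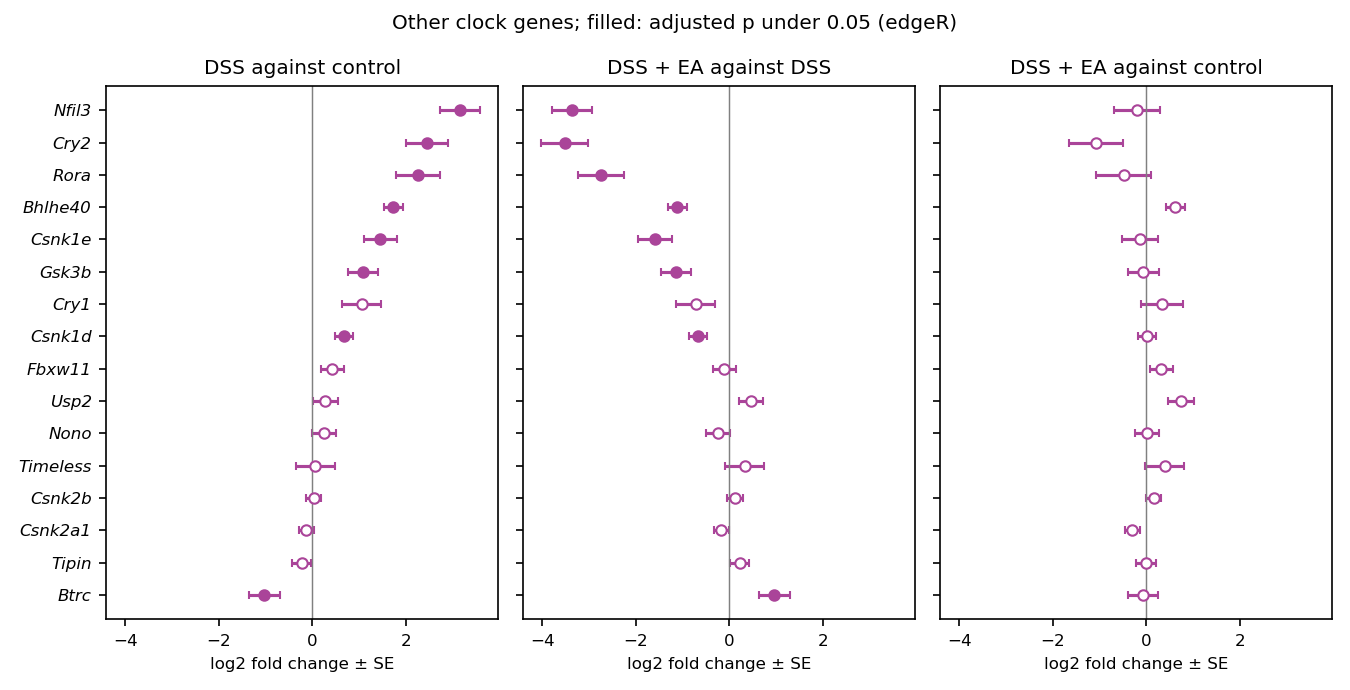
Log2 fold change of 16 of the 18 further clock genes tested, with its standard error, in the 3 comparisons of edgeR's fit. Filled symbols passed an adjusted p of 0.05: 8 of the genes shown between DSS and control, 8 between DSS + EA and DSS and 0 between DSS + EA and control.

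Of DSS + EA against control, edgeR called 0 of these 18 genes, with a smallest adjusted p of 0.158 and 2 genes at an unadjusted p under 0.05, and DESeq2 also called 0. The edgeR fit of these 2 groups alone called 1, *Bhlhe40*. With DSS + EA mice 2 and 3 left out, *Cry2* and *Nfil3* were the 2 of these genes still called between DSS + EA and DSS.

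Genes known to follow the clock or the signals that reset it were read beside the members. *Nampt*, an NAD synthesis gene driven by E-boxes, had 20.3, 24.3 and 31.0 CPM in the control, 26.4, 20.6 and 26.2 CPM in the DSS and 65.7, 50.4 and 71.7 CPM in the DSS + EA mice. It was the DSS + EA group that stood above both others here, by 1.36 (SE 0.23, adjusted p = 0.0023, edgeR) against DSS and 1.32 (SE 0.23, adjusted p = 0.0139, edgeR) against control on the log2 scale, an order that none of the 10 members had. The call of *Nampt* against DSS held in all 9 fits with a mouse left out. Its call against control held in 5 of 9, and in 7 of 8 other alternatives. *Alas1*, of haem synthesis, was called higher with EA than in the DSS group (0.89, adjusted p = 0.0375, edgeR), but in 1 of 9 fits with a mouse left out and in 5 of 8 other alternatives, and DSS mouse 1 stood at 233 CPM against 114 and 113 CPM in the other DSS mice. *Ppara* was lower between DSS and control (-2.49, adjusted p = 0.0115, edgeR). *Por* was called higher there (0.81, adjusted p = 0.038, edgeR), but in 4 of 9 fits with a mouse left out and in 5 of 8 other alternatives. The fits without that call included those with no filter and with the replicate block. Of 6 genes that respond to glucocorticoids or cAMP, as *Per1* does, 4 were higher between DSS and control, where 21.5% of all genes were called higher, and 3 of these lower between DSS + EA and DSS, where 18.3% were called lower. *Tsc22d3* (1.64 and -1.65, adjusted p = 0.00416 and 0.00544, edgeR), *Zbtb16* (2.16 and -1.96, adjusted p = 0.00424 and 0.00839) and *Nr4a1* (2.12 and -2.16, adjusted p = 0.00141 and 0.00212) passed in both. *Sgk1* passed between DSS and control (1.86, adjusted p = 0.00626) but not between DSS + EA and DSS (-1.11, adjusted p = 0.0571, edgeR). Neither comparison passed for *Fkbp5* (0.92 and -0.42, adjusted p = 0.123 and 0.478, edgeR) or *Crem* (0.41 and 0.26, adjusted p = 0.363 and 0.567). *Zbtb16* would not have passed the filter on low counts without the DSS libraries. In the DSS + EA against control comparison none of the 6 was called by edgeR, and the smallest adjusted p was 0.364. The part of glucocorticoid or cAMP signals in the values of *Per1* and the other members was not tested.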

How the data were processed

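Full-length cDNA of colon RNA from 9 mice was amplified and read on a Nanopore sequencer (PromethION). The values deposited by the authors are raw read counts per gene, not normalized. The submitters' processing notes name the genome build mm10, and the aligner, the counting tool, the annotation and the use of strand are not given in the sources used here. Of 27733 lines, 14 held no counts and were skipped, and 5620 of the 27719 genes used had no count. Libraries of a group all differed from each other.

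The counts of all 9 libraries were fitted together by group, with no further term, in edgeR 4.0.16 (R 4.3.3). Genes were kept by filterByExpr, which asks for 3.10 CPM in 3 libraries and 15 counts in all, libraries were scaled by TMM, and contrasts were tested by quasi-likelihood F tests with a prior count of 0.125. p-values were adjusted by Benjamini-Hochberg over all genes tested. Standard errors are the log2 fold change divided by the square root of F. The functions were tested on simulated counts. Python 3.11.15, pandas 2.3.3, scipy 1.17.1 and matplotlib 3.10.9 served for counting intervals (exact, 95%), promoters and figures. Gene overlaps are from GENCODE M21 (GRCm38) and promoters from RefSeq (GRCm38.p6).

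The members, the gene lists and the marker lists were chosen with earlier results of these data known. Named were all 10 members, the called genes and a few set genes of the further clock list (values for the 6 with the smallest adjusted p), the called genes of the output and of the glucocorticoid and cAMP lists, genes that overlap a member, and the 3 genes nearest to *Arntl*, *Nr1d1* and *Dbp*. Values of 2 genes of the further clock list are not reported here. The alternatives were DESeq2 1.42.0 with its size factors, RLE factors or plain library totals as the scaling, no filter or a minimum mean of 20 counts, a fit of just the 2 groups compared, a block for the replicate number, the 9 mice omitted one by one, pseudocounts of 0.1 and 2 CPM for the ratios and, chosen after seeing the data, DSS + EA mice 2 and 3 left out together.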

Additional observations from a re-analysis of the deposited data

How the results depend on the processing

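The 13 comparisons in which a member was called were refitted 215 times under the alternatives. The call was kept in 188 of these fits and lost in 27, and the sign changed in 0. *Per1* was called between DSS and control and between DSS + EA and DSS in every alternative run, and *Per2*, *Ciart* and *Nr1d1* were called in both in every one that tested them, except with DSS + EA mice 2 and 3 left out together. That choice reduced the members called between DSS + EA and DSS from 5 to 1, the further clock genes from 9 to 2 and all genes from 4457 to 807, and raised the members past the study's thresholds from 1 to 2. Fewer mice in the group are part of its construction.

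Between DSS + EA and control, the count of members was 1 with all mice, 2 with DESeq2, 0 with a mean of at least 20 counts (*Ciart* is then not tested), 0 with the replicate block, 0 with DSS + EA mice 2 and 3 left out and 0 to 1 with each mouse left out. Only the 2 groups compared gave 1 as well, but the gene was *Arntl*, *Ciart* not being tested. The same choice gave 1 further clock gene in place of 0. Over the whole table, 457 genes differed between DSS + EA and control, 697 with DESeq2, 1149 with only the 2 groups compared (68.8% of them higher, against 82.5%), 54 with DSS + EA mice 2 and 3 left out and 110 to 772 with each mouse left out. Members past the study's thresholds between DSS and control were 3, and 1 with a mean of at least 20 counts. Between DSS + EA and DSS they were 1, and 1 to 2 with each mouse left out. For these shifts the cause was not tested.

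Values that were not called changed sign as follows. With each mouse left out, *Arntl* between DSS + EA and DSS ranged from -0.46 to 0.11 (without DSS + EA mouse 2), *Nr1d2* between DSS and control from -0.0057 (without DSS mouse 1) to 1.29, *Nr1d2* between DSS + EA and control from -0.81 to 0.41 (without control mouse 3) and *Tef* between DSS + EA and control from -0.31 (without DSS + EA mouse 2; -0.02 without control mouse 3) to 0.48. Without DSS + EA mice 2 and 3, *Arntl* between DSS + EA and DSS was 0.27. Between DSS + EA and control, the same fit gave 0.23 for *Nr1d2*, -0.52 for *Tef* and -0.15 for *Clock*. The mean ratio of *Per2* to *Arntl* in the control mice was -4.17, and -3.16 with a pseudocount of 2 CPM. Control means that include a count of 0 are set in part by the pseudocount: that of *Per1* was -3.90, -4.80 with 0.1 CPM and -2.92 with 2 CPM, and that of *Ciart* -5.11, -6.51 and -3.53. That of *Dbp* to *Arntl* was -2.35 in the DSS mice, -2.57 with 0.1 CPM and -1.82 with 2 CPM, and in the DSS + EA mice it was -2.53, -2.85 and -1.85.

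With the replicate block, 6 members were called between DSS and control and 5 between DSS + EA and DSS, and 4543, 3829 and 364 genes over the whole table in the 3 comparisons. *Clock* lost its call between DSS and control (adjusted p = 0.0563, edgeR) and *Ciart* between DSS + EA and control (adjusted p = 0.091, edgeR). Same-numbered mice are different animals that share a number, and the correlations of their deviations from the group means lay between -0.160 and 0.105. Library totals in place of TMM moved the median of all genes to -0.10 between DSS + EA and DSS, and DESeq2, over 22099 genes, to -0.17.

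*Per3*, *Dbp* and *Nr1d2* rest on 28 or fewer reads in each mouse, and the control level of *Ciart* on 2 reads in all.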
